A study of Mus musculus with 12 samples.

Results

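Hepa 1-6 cells, a line grown from a mouse hepatoma, were given small interfering RNAs against 2 genes at the same time. These were Esrra, the gene of the nuclear receptor ERRα, and Hcfc1, the gene of host cell factor HCFC1. RNA of these cells was compared with that of cells given a scrambled control. Protein levels are not among the data used here. The comparison uses the 3 siERRa+siHCFC1 libraries, called the combined libraries here, and the 3 siC libraries, 6 of the 12 libraries of the study. The other 6 are 3 siERRa and 3 siHCFC1 libraries, each with 1 of the 2 genes targeted. All 4 groups were wild-type Hepa 1-6 cells plated at 400000 per dish, given 100 nM of pooled small interfering RNAs (siRNAs), transfected again after 48 h to a sum of 200 nM, and collected 96 h after the start. The sources used here do not give the share of each pool in the combined dose. Nor do they say that libraries of 1 group are independent cultures, so the p-values reflect library-to-library spread, possibly technical. The knockdowns were transient and used pools, so no group is a selected clone.

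ERRα is an orphan nuclear receptor that binds the extended half-site AAGGTCA and, with coactivators of the PGC-1 family, is known for activating genes of mitochondrial respiration and lipid use. HCFC1 does not bind DNA itself. It is brought to promoters by sequence-specific factors such as ZNF143, THAP11, GABP, YY1 and E2F proteins, carries histone-modifying complexes, and is known for its part in the cell cycle and in cobalamin metabolism. The design addresses whether the 2 proteins act together in these cells.

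Totals over genes ran from 21.4 to 33.2 M counts across the 12 libraries. Genes of the mitochondrial chromosome took 6.47%, 14.5% and 3.59% of the counts in combined libraries 1, 2 and 3, against 4.56%, 6.54% and 2.37% in siC libraries 1, 2 and 3, and library 2 had the highest share in each of the 4 groups. Hepatocyte identity was checked on 8 markers: Alb stood at 5454 to 6102 TPM (a unit that allows for gene length) in the combined libraries and 3545 to 5973 TPM in siC libraries, and Afp, the fetal serum protein of hepatomas, at 1605 to 2781 TPM and 992 to 1599 TPM in the same order. Ttr, which liver cells normally make in quantity, reached at most 2.30 TPM in the combined libraries and was at 0 in siC libraries. The apolipoprotein gene Apoa1 was at 0 to 5.42 TPM in the combined libraries and 2.97 to 6.72 TPM in siC libraries, and Apoa2 at 1.31 to 11.1 TPM and 3.08 to 5.35 TPM in the same order. Apob was at 16.5 to 27.4 TPM and 11.9 to 19.3 TPM, Foxa2 at 70.2 to 106 TPM and 95.1 to 136 TPM, and Hnf4a at 13.4 to 35.6 TPM and 46.2 to 74.8 TPM. Of the 8, 3 were called higher and 1 lower, and 0 higher and 1 lower without the library number described below. Decorin (Dcn), a matrix gene of fibroblasts, reached 2042 to 2476 TPM in the combined libraries and 1360 to 2158 TPM in siC libraries. Other fibroblast genes were at low levels. Des was at 6.03 to 9.79 TPM in the combined libraries and 7.12 to 12.1 TPM in siC libraries. Pdgfra was at 4.54 to 4.83 TPM and 4.87 to 6.84 TPM, and Col1a1 at 1.18 to 1.71 TPM and 0.883 to 1.52 TPM, in the same order. Col1a2, Col3a1, Pdgfrb and Acta2 were at or near 0 in all 6.

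Both targets were lower. Esrra (chromosome 19, 6910977 to 6921813, minus strand, in mouse genome build mm10) had 18.9, 20.5 and 12.5 CPM (counts scaled to library size by the TMM method of edgeR, with no allowance for gene length) in combined libraries 1, 2 and 3, against 46.4, 42.7 and 52.1 CPM in siC libraries 1, 2 and 3. The 2 ranges do not overlap. The change was -1.47 on the log2 scale (SE 0.20, adjusted p = 2.99e-05 by edgeR's quasi-likelihood test with Benjamini-Hochberg adjustment over 15965 genes), or 2.76-fold lower. Hcfc1 (chromosome X, 73942792 to 73966357, minus strand) had 119, 131 and 88.7 CPM in the combined libraries, against 179, 142 and 198 CPM in siC libraries. Its ranges lie close together, and the change was -0.66 (SE 0.18, adjusted p = 0.0107). Without siC library 3 it was -0.31 (adjusted p = 0.193), and without the library number in the model its adjusted p was 0.182, so the call for Hcfc1 RNA rests on that library and on the number. The authors' deposited table, made with DESeq2 per the submitters' notes, has Hcfc1 at -0.58 (adjusted p = 0.0536). In TPM, Esrra averaged 19.6 ± 2.99 in the combined libraries and 59.3 ± 7.82 in siC libraries, and Hcfc1 38.9 ± 3.81 and 66.3 ± 12.9 (SD, n = 3 each). Esrra was 0.55 higher on the log2 scale in the combined libraries than with siERRa alone (SE 0.20, adjusted p = 0.0634). Hcfc1 changed by 0.24 in the combined libraries against siHCFC1 alone (SE 0.18, adjusted p = 0.551). Neither difference passed the threshold, the first only narrowly.

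Some libraries stand apart in 1 gene of glycolysis. Gapdh had 1088, 172 and 70.1 CPM in the combined libraries, 657, 568 and 1350 CPM in siERRa libraries, 848, 137 and 932 CPM in siHCFC1 libraries and 62.3, 115 and 82.5 CPM in siC libraries. Combined library 1 thus lies far above combined libraries 2 and 3, and the gene was not called (1.83, SE 0.69, adjusted p = 0.0578). Against siC, Gapdh was called higher with siERRa alone (3.12, SE 0.68, adjusted p = 0.00543) and with siHCFC1 alone (2.47, SE 0.69, adjusted p = 0.0121). Neither was called without the library number (adjusted p = 0.126 and 0.0552). Of its 31-base words, 28.1% recur in other genes, which makes its counts uncertain. Of 20 glycolysis genes tested, Gapdh included, 1 was called higher (5%) and 2 lower (10%), where 11.7% and 13.8% of all genes tested were. Without the library number the counts were 1 and 0, and leaving out a library gave 1 or 2 higher and 1 to 3 lower. Whether this reflects the cells or the libraries was not tested.

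**Figure D1:**
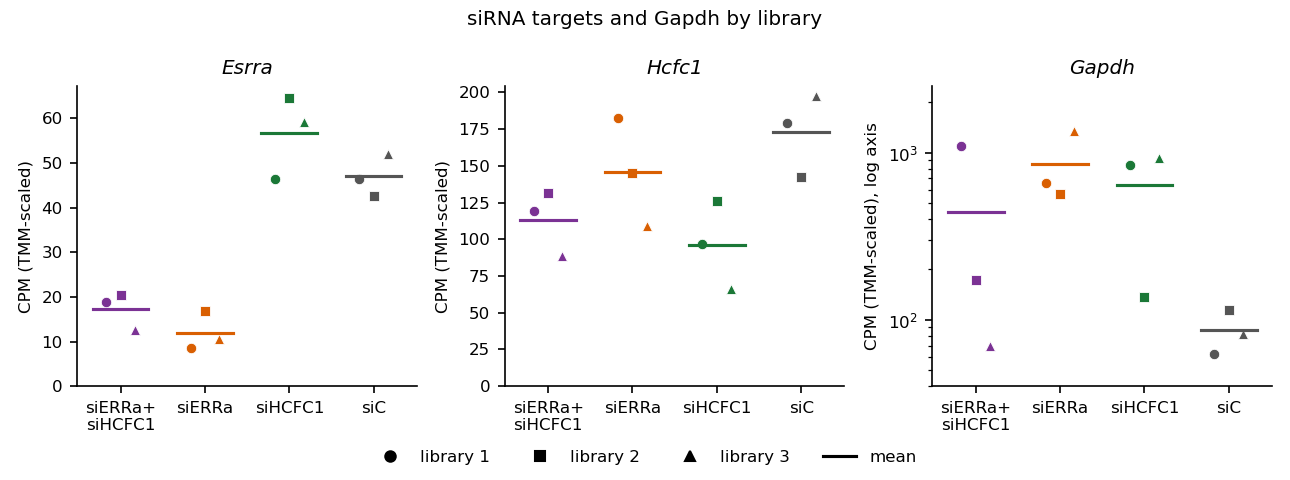
CPM of Esrra and Hcfc1 (linear axes) and of Gapdh (log axis) in each library, with the group mean as a bar and the library number as the symbol. Combined libraries lie between 12.5 and 20.5 CPM for Esrra and all siC libraries above 42, the Hcfc1 ranges nearly meet, and Gapdh differs among libraries of 1 group.

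Of the other members of the 2 families, Hcfc2, the paralog of Hcfc1, rose to 78.8, 75.2 and 71.1 CPM in the combined libraries, against 53.4, 46.7 and 48.3 CPM in siC libraries (0.60, SE 0.11, adjusted p = 0.000631). Esrrg, the gene of the related receptor ERRγ, had at most 1.51 CPM in the combined libraries and at most 0.208 CPM in siC libraries and was not called (adjusted p = 0.122). Among 19 ERR coactivators and corepressors, 1 was called higher (5.26%) and 3 lower (15.8%), where 11.7% and 13.8% of all genes tested were. The number higher was 0 without the library number, siC library 1 or combined library 3, and 2 without siC library 3 or combined library 2. The 3 that fell were the acetyltransferase gene Kat2a (-0.94, SE 0.14, adjusted p = 7.21e-05), the PGC-1-related coactivator gene Pprc1 (-0.80, SE 0.12, adjusted p = 9.31e-05) and Fbxl4, an F-box gene (-0.74, SE 0.15, adjusted p = 0.000979). Kat2a had 33.1, 41.9 and 26.3 CPM in the combined libraries, against 64.5, 62.5 and 63.8 CPM in siC libraries, with no overlap. Of 34 chromatin and promoter partners of HCFC1, 9 rose (26.5%) and 5 fell (14.7%), the latter near the 13.8% of all genes. Menin (Men1), a subunit of MLL histone methyltransferase complexes, fell to 71, 52.4 and 50.6 CPM in the combined libraries, against 129, 133 and 117 CPM in siC libraries (-1.13, SE 0.12, adjusted p = 1.4e-06). Without the library number 0 of the 34 were called higher and 2 lower.

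Across the transcriptome, 1870 of 15965 genes tested were called higher (11.7%) and 2197 lower (13.8%), 4067 in all (25.5%), where called means an adjusted p under 0.05. Among the called genes the median size of the change was 0.72 on the log2 scale, 527 rose by at least 1 and 658 fell by at least 1, and the median change of all genes tested was -0.02. The ranges of the 2 groups did not overlap for 4788 genes (30.0%), 3070 of them called. These counts depend on the library number being a term of the model: without it, 452 genes were called higher (2.83%) and 648 lower (4.06%), and all 1100 were also called, in the same direction, with it. The counts over gene lists, above and below, stand against these shares, and a list near them gives no result about its members. Scaling moved the balance of directions, with 46.0% of the calls higher in the main fit and 26.5% in a limma fit of log2(TPM + 0.5), whose median change over genes lay 0.13 below that of the TMM fit. In the authors' deposited table, 1044 genes were higher and 1110 lower at an adjusted p under 0.05, and 2061 of these 2154 (95.7%) were called in the same direction here, which is 50.7% of the calls here. In bulk RNA, fewer cells with a transcript and less of it per cell cannot be told apart.

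**Figure D2:**
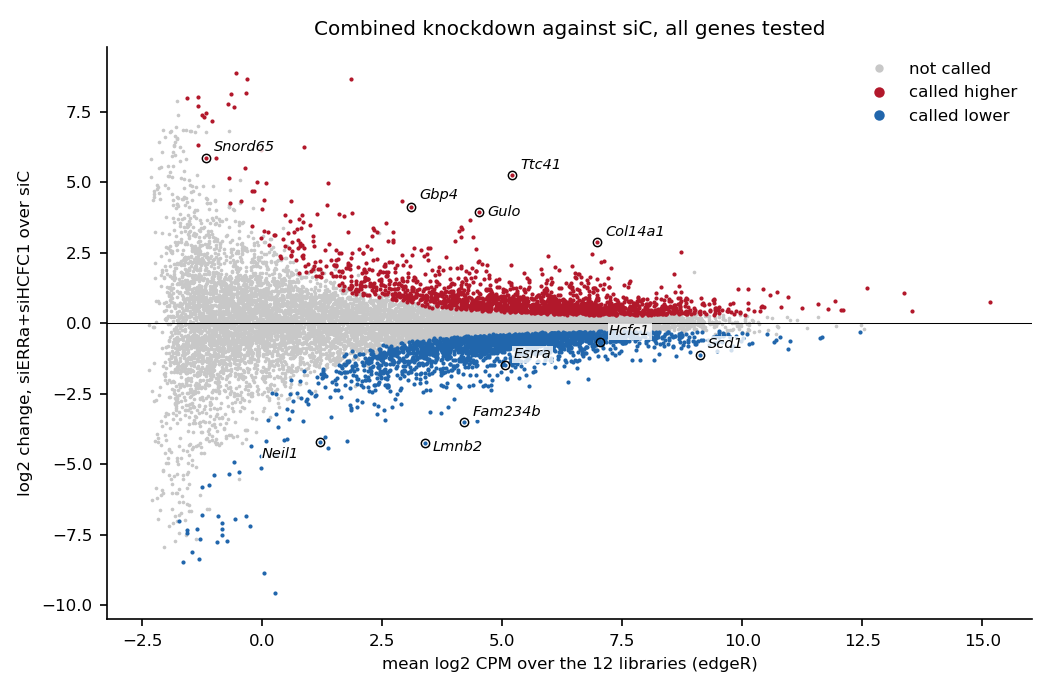
Log2 change of siERRa+siHCFC1 over siC for every gene tested, against its mean log2 CPM over the 12 libraries. Red points are the 1870 genes called higher and blue points the 2197 called lower, and circles mark 11 genes described in the text.

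Changes are described for genes called, with ranges apart, the same direction in all 3 library numbers and a mean of at least 5 TPM in the higher group, leaving out predicted genes and pseudogenes; larger fitted changes outside that rule are not described. The largest falls by that rule were in genes of varied roles. Lmnb2, the gene of lamin B2, a filament of the nuclear lamina, fell to 1.55, 2.48 and 0.266 CPM in the combined libraries, against 21.4, 27.6 and 22.1 CPM in siC libraries, 19-fold lower (-4.25, SE 0.39, adjusted p = 3.3e-07). With siHCFC1 alone it had 0.959, 2.23 and 0.754 CPM, and it stood at 15.4, 16.7 and 12.5 CPM with siERRa alone; the combined level differed from siERRa (-3.57, adjusted p = 4.29e-06) and did not pass the threshold against siHCFC1 (0.04, SE 0.41, adjusted p = 0.98). Neil1, a DNA glycosylase that removes oxidised bases, had 0.155, 0.536 and 0 CPM in the combined libraries, against 4.14, 4.86 and 2.2 CPM in siC libraries (-4.20, SE 0.81, adjusted p = 0.000787). Its size rests on few reads: without combined library 2 it was -5.49 and without combined library 3 -3.51. Fam219a had 0.661, 0.633 and 0 CPM in the combined libraries, against 8.8, 3.95 and 8.96 CPM in siC libraries (-4.19, SE 0.71, adjusted p = 0.000228), or -3.40 without combined library 3, where no read of it was counted; its antisense neighbour Fam219aos covers 15.6% of its exons, and reads were not marked by strand. For these 3 the combined and siC ranges are far apart.

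The promoters of these 3 genes, the largest of these falls for which a RefSeq promoter of GRCm38.p6 starts at the deposited gene start, are shown 5′ to 3′ on the gene's strand, from 250 bases before to 50 after the start, because HCFC1 acts at promoters through the proteins that bind them. Capitals mark matches on either strand to the cores searched: ACTACAA of ZNF143 and THAP11, CCGGAAG of ETS factors such as GABP, AAGGTCA of ERR, GCGCATGCG of NRF1, AAGATGGCG of YY1, TCACNCCAC of sterol response elements, and the interferon-stimulated response element. No match overlaps another in them.
Lmnb2 (chr10:80918196-80918495, minus strand): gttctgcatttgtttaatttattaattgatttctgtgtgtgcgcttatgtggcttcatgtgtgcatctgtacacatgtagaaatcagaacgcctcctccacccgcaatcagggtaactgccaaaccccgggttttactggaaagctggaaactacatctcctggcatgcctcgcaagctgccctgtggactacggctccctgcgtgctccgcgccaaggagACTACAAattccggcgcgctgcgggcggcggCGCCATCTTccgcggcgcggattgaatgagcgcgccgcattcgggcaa
Neil1 (chr9:57148256-57148555, minus strand): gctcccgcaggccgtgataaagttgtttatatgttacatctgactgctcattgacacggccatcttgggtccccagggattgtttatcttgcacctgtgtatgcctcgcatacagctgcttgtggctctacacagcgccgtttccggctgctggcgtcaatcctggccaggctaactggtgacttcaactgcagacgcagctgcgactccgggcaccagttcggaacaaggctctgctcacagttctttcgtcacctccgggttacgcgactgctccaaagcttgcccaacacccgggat
Fam219a (chr4:41569489-41569788, minus strand): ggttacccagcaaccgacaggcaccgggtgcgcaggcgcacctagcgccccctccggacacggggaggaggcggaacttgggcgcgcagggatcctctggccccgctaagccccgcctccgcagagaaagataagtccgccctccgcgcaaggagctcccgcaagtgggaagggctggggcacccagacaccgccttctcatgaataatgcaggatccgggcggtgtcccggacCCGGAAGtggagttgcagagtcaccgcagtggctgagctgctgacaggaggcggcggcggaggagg
The Lmnb2 window held ACTACAA on the gene's strand and, closer to the start, the YY1 core on the other strand. Neil1 held none of the 7 letter strings in its window and Fam219a only the ETS core. Over all 32851 promoters of the table, ACTACAA occurs in 3.24%, CCGGAAG in 8.86%, the YY1 core in 1.4%, AAGGTCA in 4.72%, GCGCATGCG in 1.75%, the interferon element in 3.44% and the sterol element in 1.24%. Over the 10629 promoters matched to genes tested, the same 7 occur in 4.24%, 18.1%, 3.05%, 3.33%, 3.57%, 3.12% and 1.08%, so the ETS and YY1 cores are more frequent there than in the whole table. A match is a run of letters, not a shown binding site. Those 10629 are 66.6% of the genes tested, so shares over called genes miss the rest. In the same order, the 7 occur in 9.22%, 12.4%, 1.8%, 3.41%, 2.81%, 3.21% and 1.8% of 499 called falls of at least 1 (log2). For 344 called rises of at least 1 the shares are 4.36%, 9.59%, 2.62%, 4.94%, 2.03%, 9.59% and 0.291%. ACTACAA is more frequent in these falls than over the 10629, and the interferon element in these rises. The ETS, NRF1 and YY1 cores are less frequent in both of these sets. AAGGTCA is near its share in these falls and above it in these rises. Without the size limit this differs in part. Over all 1704 called falls, the ETS core and NRF1 (3.93%) lie above their shares, YY1 (2.23%) and AAGGTCA (2.35%) below. Over all 1395 called rises, YY1 (4.66%) lies above, ETS (14.6%) below, and NRF1 (3.44%) and AAGGTCA (3.15%) slightly below. ACTACAA (6.75% of all called falls) and the interferon element (5.09% of all called rises) stay above. These differences were not tested.

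The next falls were R3hdml (-4.02, SE 0.59), Fam234b (-3.50, SE 0.31), Mettl26 (-3.48, SE 0.28), Camsap3, which caps microtubule minus ends (-3.45, SE 0.49), the atypical protein kinase C gene Prkcz (-3.21, SE 0.36), the serine hydrolase gene Rbbp9 (-3.20, SE 0.56) and Reep6, an endoplasmic reticulum shaping gene (-3.14, SE 0.29). Their adjusted p ran from 7.45e-08 for Mettl26 to 0.000317 for Rbbp9, and none of these ranges overlapped, which the rule above requires. Mettl26 had 4.74, 3.46 and 2.46 CPM in the combined libraries, against 37.6, 34.1 and 45.6 CPM in siC libraries, and 38.1, 33.3 and 53.9 CPM with siERRa alone and 5.47, 3.62 and 2.33 CPM with siHCFC1 alone. For this gene the siERRa libraries lie with siC and the siHCFC1 libraries with the combined ones. Rbbp9 had 8.04, 0.244 and 0.765 CPM in the combined libraries, against 24.9, 19.1 and 19.2 CPM in siC libraries; combined library 1 is far above the other 2, and without it the change was -5.32, while without combined library 2 or 3 it was -2.59 or -2.60. R3hdml moved to -4.76 without combined library 1 and Camsap3 to -4.05 without siC library 1.

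Among the largest rises by the same rule was Ttc41, a gene with tetratricopeptide repeats. It rose to 56.5, 97.1 and 54.5 CPM in the combined libraries, against 2.48, 1.39 and 1.44 CPM in siC libraries, 38.2-fold higher (5.26, SE 0.28, adjusted p = 4.95e-10). Its level with siHCFC1 alone was 70.9, 92.6 and 53.5 CPM and with siERRa alone 1.58, 4.36 and 2.84 CPM. The combined libraries overlap the siHCFC1 libraries and lie far above both other groups. Snord65, a small nucleolar RNA gene, had the highest fitted change among the named rises (5.86, SE 2.06, adjusted p = 0.0426) but only 0.622, 0.487 and 0.499 CPM in the combined libraries, against 0, 0 and 0.04 CPM in siC libraries. Without combined library 3 the change was 7.17. Its call was lost without any 1 of siC libraries 1, 2 and 3 and of combined libraries 1 and 2 (adjusted p from 0.114 to 0.154) and, at 0.147, without the library number. Gulo, which in mice makes the last step of vitamin C synthesis, rose to 43.3, 81.9 and 24.1 CPM in the combined libraries, against 2.44, 4.86 and 2.04 CPM in siC libraries (3.94, SE 0.21, adjusted p = 4.95e-10). Gbp4, Gbp2 and Gbp9, which encode guanylate-binding GTPases known as products of interferon signalling, rose by 4.10 (SE 0.31), 3.80 (SE 0.46) and 3.32 (SE 0.21) on the log2 scale, with adjusted p of 4.14e-08, 8.54e-06 and 4.19e-09. Gbp4 had 9.13, 25.5 and 14.4 CPM in the combined libraries, against 0.385, 1.6 and 0.92 CPM in siC libraries. Trim12a (3.42, SE 0.21) and Trim12c (3.67, SE 0.22; uncertain, since 48.1% of its 31-base words recur in other genes, most in Trim5) belong to the mouse TRIM5 group of restriction factors. The aldo-keto reductase gene Akr1c14 (3.54, SE 0.41, and 4.14 without siC library 1) and Serpind1, the gene of heparin cofactor II (3.36, SE 0.46, and 2.72 without siC library 2), complete the 10.

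The nearest RefSeq promoter of Ttc41 starts 6954 bases from the deposited gene start, held none of the 7 strings and is not shown. That of R3hdml, the fall next in size, held none either and is not shown. Matches in the other interferon-response genes are not given here. The RefSeq promoter of Gbp2, 1 of the genes that rose, is shown in the same window. Its 1 match, to the interferon response element on the other strand, is in capitals, and its start lies 61 bases from the deposited gene start.
Gbp2 (chr3:142620413-142620712, plus strand): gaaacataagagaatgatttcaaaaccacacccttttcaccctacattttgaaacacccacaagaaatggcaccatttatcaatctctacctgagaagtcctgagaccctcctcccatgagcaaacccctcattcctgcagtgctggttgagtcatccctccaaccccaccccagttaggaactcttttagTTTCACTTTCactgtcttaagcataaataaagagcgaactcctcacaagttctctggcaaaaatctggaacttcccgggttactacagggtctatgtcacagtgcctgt
Gbp2 itself had 5.09, 6.96 and 6.25 CPM in the combined libraries, against 0.214, 0.59 and 0.52 CPM in siC libraries, with 0.926, 1.32 and 0.66 CPM for siERRa alone and 4.85, 6.11 and 4.63 CPM for siHCFC1 alone.

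Sterol synthesis genes fell together. Of 25 genes of the cholesterol pathway and its control, all tested, 21 were called lower and 0 higher, against 13.8% and 11.7% over all genes, and their median change was -0.69. The median difference of log2(CPM + 0.5) was -0.89, -0.70 and -0.73 within library numbers 1, 2 and 3. Dhcr7, which makes cholesterol from its last precursor, had 48, 75.5 and 42.4 CPM in the combined libraries, against 119, 173 and 116 CPM in siC libraries (-1.32, SE 0.12, adjusted p = 2.67e-07). Each combined library lies below the siC library of its number and below every siC library. Lanosterol synthase (Lss) fell to 30.5, 24.8 and 25.8 CPM in the combined libraries, against 60.5, 63.7 and 66.1 CPM in siC libraries (-1.22, SE 0.14, adjusted p = 6.3e-06), and Acat2, which condenses acetyl-CoA, had a change of -1.76 (SE 0.23, adjusted p = 1.65e-05; uncertain, with 43.8% of its words also in Acat3 or others). The sterol-sensing regulator Insig1 changed by -1.49 (SE 0.19, adjusted p = 1.82e-05) and the transcription factor gene Srebf2 by -0.50 (SE 0.10, adjusted p = 0.00135). The fitted change of all 25 was below 0. Against siHCFC1 alone 17 of the 25 were lower and 0 higher, where 2.14% of all genes tested were lower and 1.38% higher. Against siERRa alone 10 were lower and 0 higher, where 9.77% of all genes were lower and 10.2% higher. Without the library number 8 of the 25 were called lower than in siC, 0 lower than with siHCFC1 and 2 lower than with siERRa. For the comparison with siC, leaving out any 1 library gave 19 to 21 lower.

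Fatty acid synthesis followed with 10 of 18 tested genes lower and 0 higher, a median of -0.47. Fads2, a desaturase of polyunsaturated fatty acids, fell to 46.6, 50.8 and 45.3 CPM in the combined libraries, against 121, 144 and 99.4 CPM in siC libraries (-1.34, SE 0.12, adjusted p = 2.41e-07). The stearoyl-CoA desaturase gene Scd1 fell to 421, 383 and 281 CPM in the combined libraries, against 789, 842 and 697 CPM in siC libraries (-1.12, SE 0.11, adjusted p = 4.59e-07). Neither gene's ranges overlapped, and both were also lower than with siHCFC1 alone (-1.10 and -0.50, adjusted p = 3.65e-05 and 0.0107) and than with siERRa alone (-0.53 and -0.63, adjusted p = 0.00325 and 0.000304). Those differences from the single knockdowns were not called without the number (adjusted p = 0.11 and 0.685 against siHCFC1, 0.185 and 0.156 against siERRa). Without the number 4 members were called lower than in siC.

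**Figure D3:**
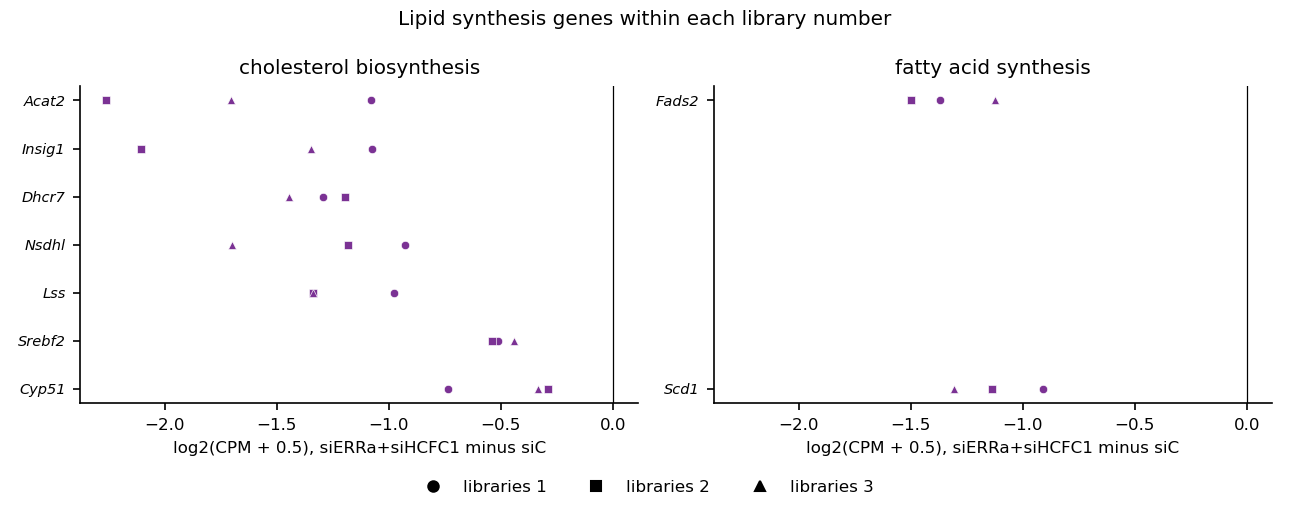
Difference of log2(CPM + 0.5), siERRa+siHCFC1 minus siC, within library numbers 1, 2 and 3 (symbols) for the genes of cholesterol and fatty acid synthesis that the text names, all of them called. Each lies below 0 in all 3 numbers, which the choice of genes called lower largely fixes. Other members of both lists are not shown.

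Cell division genes fell, and histone genes rose. Of 36 genes of mitosis, 26 were called lower and 0 higher, a median of -0.51, and of 44 DNA replication genes 16 were lower and 0 higher, a median of -0.36. Mcm6, a subunit of the replicative helicase, fell to 49.2, 45 and 59.7 CPM in the combined libraries, against 147, 110.1 and 129 CPM in siC libraries (-1.32, SE 0.13, adjusted p = 1.06e-06). Prim1, the DNA primase catalytic subunit, fell (-1.23, SE 0.23, adjusted p = 0.000533). Cdc25b, a phosphatase that opens mitosis, had 148, 109 and 119 CPM in the combined libraries, against 211, 196 and 183 CPM in siC libraries (-0.66, SE 0.11, adjusted p = 0.000317), which do not overlap. Without the library number 3 mitosis genes and 4 replication genes were called lower. Without siC library 2, 10 replication genes were called lower, and without combined library 1, 1 mitosis gene was called higher. Against siERRa alone 0 mitosis genes were lower and 6 higher (16.7%, where 9.77% of all genes were lower and 10.2% higher), and 1 was higher without the number. Against siHCFC1 alone 5 were lower (13.9%) and 0 higher, where 2.14% and 1.38% of all genes were, and 0 were called without the number.

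Of 23 histone genes listed, 15 were tested, 9 were called higher and 0 lower, or 4 higher without the library number. The linker histone gene Hist1h1c rose to 300.4, 157 and 221 CPM in the combined libraries, against 52.3, 35.2 and 68.4 CPM in siC libraries (2.15, SE 0.17, adjusted p = 6.81e-08), and Hist1h2be to 17.4, 10.1 and 12.1 CPM, against 2.39, 3.3 and 3.52 CPM in siC libraries (2.07, SE 0.31, adjusted p = 7.93e-05). Replication-dependent histone messages lack a poly(A) tail, and the sources used here do not name the enrichment step. Of 17 genes of the nuclear lamina and envelope, 8 were lower and 1 higher, a median of -0.37, or 1 lower and 0 higher without the number; without siC library 2 or combined library 2, 0 were higher. Besides Lmnb2 they included Sun1 (-0.81, SE 0.11, adjusted p = 3.58e-05, and 0.148 without the number), of the bridge between nucleus and cytoskeleton, and emerin, Emd (-0.84, SE 0.12, adjusted p = 4.19e-05, and 0.0932 without the number).

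**Figure D4:**
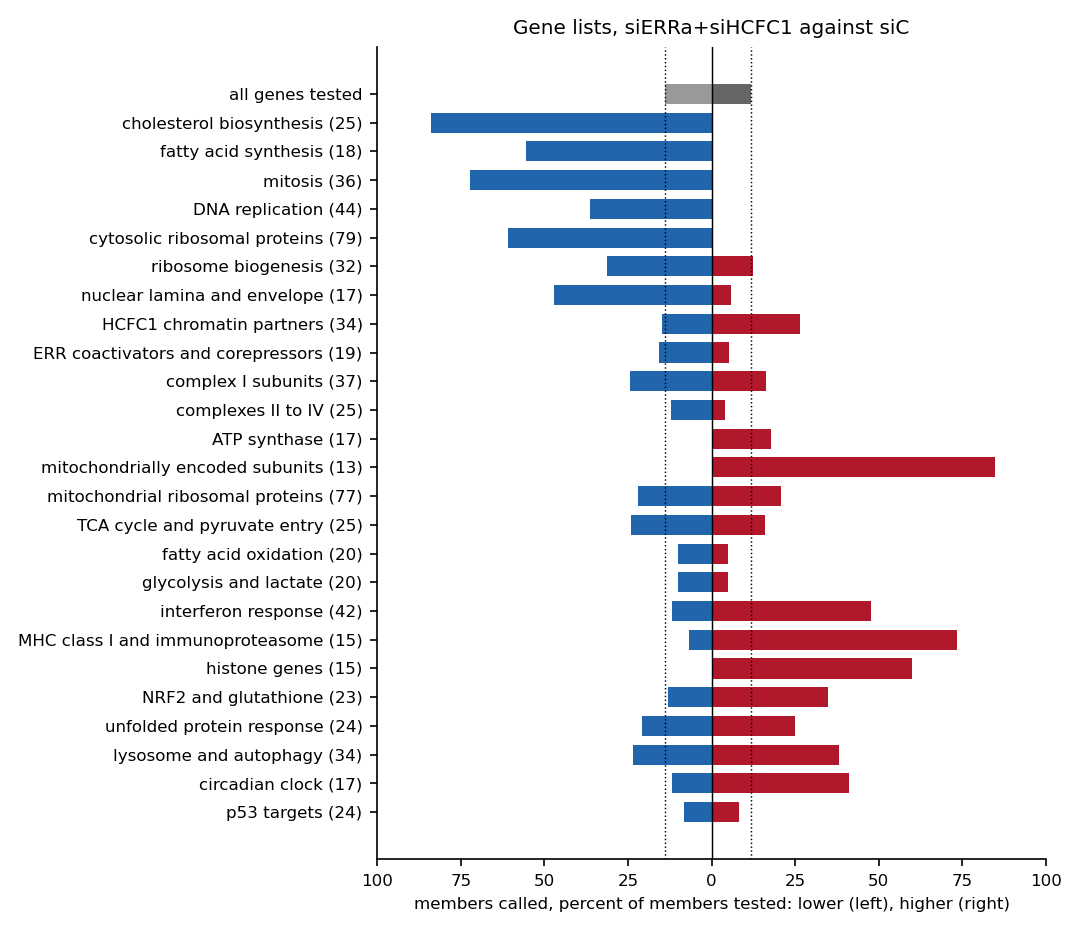
Share of the tested members of 25 gene lists (number tested in brackets) called lower (blue, left) and higher (red, right) in siERRa+siHCFC1 against siC. Dotted lines mark the shares over all genes tested, 13.8% lower and 11.7% higher.

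Nuclear genes of respiration are those ERRα is known for. Of 37 complex I subunit genes, 6 were called higher (16.2%) and 9 lower (24.3%), where 11.7% and 13.8% of all genes were. Without the library number 3 were lower and 0 higher. Of 25 genes of complexes II to IV, 1 was called higher (4%, and 2 genes without siC library 2) and 3 lower (12%), no more than over all genes, and 0 were called without the number. Ndufa3, an accessory subunit of complex I, fell to 9.68, 6.48 and 4.46 CPM in the combined libraries, against 23.1, 26.1 and 23.5 CPM in siC libraries (-1.81, SE 0.26, adjusted p = 5.72e-05), and stood at 27, 39.4 and 39.5 CPM with siERRa alone and 3.41, 7.5 and 4.8 CPM with siHCFC1 alone. Ndufv2 of the NADH-binding module (-0.87, SE 0.12, adjusted p = 4.05e-05) and Ndufa10 (-0.83, SE 0.14, adjusted p = 0.000197) fell too. The number of complex I subunits called higher was 1 without siC library 3 and 3 without combined library 1 or 2, and the number lower was 5 without siC library 2. Against siERRa alone, 16 complex I subunits were lower (43.2%, against 9.77% over all genes) and 0 higher, or 3 lower without the number. Against siHCFC1 alone 0 were lower and 2 higher (5.41%, against 1.38% over all genes), or 0 without the number. Assembly factors of complex I had 4 of 15 lower (26.7%) and 0 higher, or 2 lower without the number, among them Foxred1 (-1.30, SE 0.27, adjusted p = 0.00122), and 2 were lower without siC library 2 or 3; without siC library 1, 1 was higher. Of 17 ATP synthase genes 3 were called higher (17.6%) and 0 lower, and 0 were higher without siC library 3 or without the library number, and 1 without combined library 1 or 2. Without combined library 1, 1 was lower.

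Transcripts of the mitochondrial chromosome were higher: 11 of 13 were called higher and 0 lower, a median of 0.80. The gene mt-Nd2 had 6284, 17459 and 3750 CPM in the combined libraries, against 3907, 5114 and 1569 CPM in siC libraries (1.24, SE 0.14, adjusted p = 2.68e-06). Each combined library is above the siC library of its number, but the ranges overlap, and without the number 0 of the 13 were called (mt-Nd2 adjusted p = 0.213). The median difference was 0.46, 1.31 and 0.64 in numbers 1, 2 and 3, and combined library 2 is the one with 14.5% mitochondrial counts. Without that library alone 9 were called higher, with a median of 0.60, and without number 2 in every group 7 were, with a median of 0.53. Of 21 nuclear genes for mitochondrial DNA expression and upkeep, 2 rose (9.52%) and 5 fell (23.8%), or 2 and 1 without the library number. Fastkd2, which binds mitochondrial RNA, rose to 62.2, 93 and 45.2 CPM in the combined libraries, against 24.1, 36.4 and 21.2 CPM in siC libraries (1.27, SE 0.14, adjusted p = 2.52e-06). Mgme1, an exonuclease of mitochondrial DNA, fell (-1.77, SE 0.29, adjusted p = 0.000155). With any 1 library left out, 2 or 3 were called lower.

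Of 77 mitochondrial ribosomal protein genes, 16 were higher and 17 lower, or 4 each without the library number, and counts that came to 10 without siC library 3 (higher) and to 10 without combined library 3 (lower). Mrpl24 fell to 11.9, 9.2 and 5.06 CPM in the combined libraries, against 37.3, 38.4 and 43.8 CPM in siC libraries (-2.22, SE 0.24, adjusted p = 1.99e-06; uncertain, with 27.2% of its words in the overlapping Rrnad1 or elsewhere), and Mrps31 fell (-1.34, SE 0.21, adjusted p = 9.6e-05). Mrps18b rose by 1.29 (SE 0.14, adjusted p = 1.76e-06; uncertain, with 31.6% of its words shared). Of 31 genes of mitochondrial import and quality control 2 were higher and 3 lower, below the shares over all genes, or 0 and 1 without the library number, counts that moved to 0 and 1 without siC library 2, to 0 and 5 without siC library 3, and to 1 and 1 without combined library 1; 1 was higher without combined library 2. In the TCA cycle and pyruvate entry, 4 of 25 genes were higher and 6 lower, or 1 and 3 without the number. Dlat, the acetyltransferase of pyruvate dehydrogenase, fell to 25.1, 24.6 and 21.5 CPM in the combined libraries, against 75.2, 44 and 64 CPM in siC libraries (-1.33, SE 0.15, adjusted p = 3.64e-06). The number of TCA genes called higher was 2 without siC library 2 or combined library 2. Fatty acid oxidation had 1 of 20 genes higher and 2 lower, below the shares over all genes, or 0 and 1 without the number, with Acat1, the mitochondrial thiolase, at -0.97 (SE 0.16, adjusted p = 0.000161). Of its list 2 were higher and 1 lower without siC library 2, 0 higher without siC library 3 or combined library 1, and 1 lower without combined library 2. Cobalamin handling, linked to HCFC1 by its human disease, had 3 of 12 genes higher and 2 lower, or 1 higher without siC library 2 or combined library 2, and 0 called without the number. Mmachc had 2.53, 0.828 and 0 CPM in the combined libraries, against 4.53, 2.81 and 6 CPM in siC libraries, and was not called (adjusted p = 0.0537). Among genes of folate and nucleotide synthesis 1 of 29 was higher and 8 lower, or 0 and 2 without the number, led by Impdh2 of guanine nucleotide synthesis (-1.96, SE 0.15, adjusted p = 4.72e-08; uncertain, with 43.7% of its words in a pseudogene or elsewhere).

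Protein synthesis genes fell at the ribosome, and elsewhere their rises were near the share over all genes. Of 79 cytosolic ribosomal protein genes, 48 were lower and 0 higher, a median of -0.50; 8 were called lower without the library number. Their many pseudogenes make single members uncertain. Ribosome biogenesis had 4 of 32 genes higher (12.5%) and 10 lower (31.2%), where 11.7% and 13.8% of all genes were, or 4 and 1 without the number. Utp20, of the small-subunit processome, rose to 179, 191 and 189 CPM in the combined libraries, against 63.3, 63.1 and 62.6 CPM in siC libraries (1.57, SE 0.13, adjusted p = 1.28e-07), and Polr1a, the largest subunit of RNA polymerase I, to 147, 153 and 178 CPM, against 66.9, 56 and 72 CPM in siC libraries (1.30, SE 0.15, adjusted p = 4.79e-06). With any 1 library left out, 4 were called higher and 3 to 5 lower. Aminoacyl-tRNA synthetases had 5 of 37 higher (13.5%) and 8 lower (21.6%), or 1 and 4 without the number. Qars, the glutaminyl-tRNA synthetase gene, fell (-1.05, SE 0.11, adjusted p = 2.48e-06), and the mitochondrial Fars2 rose by 1.39 (SE 0.17, adjusted p = 1.2e-05). Only 1 synthetase was called higher without siC library 3, and 3 without siC library 1 or without any 1 combined library.

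Interferon-response genes rose. Of 42 tested, 20 were higher and 5 lower, a median of 0.87, and 12 were higher and 1 lower without the library number. Leaving out any 1 library gave 15 to 21 higher; the falls numbered 2 without siC library 2 or 3 or combined library 3, and 3 without combined library 2. The guanylate-binding genes above lead the list. Bst2, the gene of tetherin, ran the other way, with 38.1, 42.3 and 33.1 CPM in the combined libraries, against 83.2, 117 and 70 CPM in siC libraries (-1.22, SE 0.14, adjusted p = 3.05e-06). Of 15 genes of MHC class I and the immunoproteasome, 11 were higher and 1 lower, or 4 and 0 without the number. Psmb9, an immunoproteasome subunit, rose to 15.4, 26.4 and 24.7 CPM in the combined libraries, against 6.45, 5.69 and 5.6 CPM in siC libraries (1.87, SE 0.26, adjusted p = 3.04e-05). The class I heavy chain gene H2-D1 rose by 1.22 (SE 0.12, adjusted p = 7.81e-07, and 0.0607 without the number; uncertain, with 26.9% of its words in H2-K1 or others). Against siERRa alone, 16 interferon genes were higher and 1 lower and 9 of the class I list were higher and 0 lower, where 10.2% of all genes were higher and 9.77% lower. Without the number 7 interferon genes and 0 of the class I list were higher than with siERRa. Against siHCFC1 alone, 0 interferon genes were higher and 4 lower, or 0 lower without the number. Of 7 leukocyte markers with values, 4 were under 1 TPM in all 6 libraries. Ptprc was at most 0.0131 TPM in the combined libraries and at 0 in siC libraries. The summed marker level was 69.5 to 105 TPM in the combined libraries and 167 to 225 TPM in siC libraries. Almost all of it was Cd68, a lysosomal protein of macrophages, which fell (-1.07, SE 0.13, adjusted p = 8.68e-06). Csf1r, the receptor of a macrophage growth factor, rose to 2.33, 4.77 and 5.92 CPM in the combined libraries, against 1.37, 0.104 and 1.04 CPM in siC libraries (2.47, SE 0.65, adjusted p = 0.00807), which is 1.44 to 4.03 TPM and 0.0654 to 0.904 TPM in the same order, and stood at 0.116, 0.214 and 0.23 CPM with siERRa alone and 8.06, 6.91 and 4.35 CPM with siHCFC1 alone. The change was 1.76 without siC library 2 and 3.18 without siC library 1, and it was not called without library number 2. Itgam had 51 counts over the combined libraries and 16 over siC libraries and was not called (adjusted p = 0.333), and Adgre1 had 18 counts and 0, too few to be tested. The part of such cells in the rise of interferon-response genes was not tested.

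Against siC, stress pathways did not share a direction. Of 24 genes of the unfolded protein response, 6 were higher and 5 lower than in siC, or 0 and 1 without the library number. The chaperone gene Hspa5 had 2067, 2822 and 1817 CPM in the combined libraries, 1126, 1549 and 1192 CPM in siERRa libraries, 3436, 6564 and 3860 CPM in siHCFC1 libraries and 1416, 1804 and 1371 CPM in siC libraries. It was higher than in siC (0.53, SE 0.11, adjusted p = 0.00128, and 0.277 without the number) and lower than with siHCFC1 alone (-1.02, SE 0.11, adjusted p = 4.03e-05). Sdf2l1, of the same chaperone system, fell to 5.6, 8.23 and 7.05 CPM in the combined libraries, against 15.4, 19.6 and 12.4 CPM in siC libraries (-1.20, SE 0.21, adjusted p = 0.000293), and had 14.4, 21.9 and 21.4 CPM with siHCFC1 alone (-1.47, SE 0.21, adjusted p = 0.000434 for combined against siHCFC1). In that comparison 13 of the 24 genes were lower and 0 higher, where 2.14% and 1.38% of all genes were. Without the number 0 of the 24, Hspa5 and Sdf2l1 included, were called. Against siC the higher members numbered 3 without siC library 1 or combined library 1, and the lower ones 3 without siC library 1 and 2 without combined library 2. Against siERRa alone, 7 of the 24 were higher and 1 lower, where 10.2% and 9.77% of all genes were. So were 13 of 23 NRF2 and glutathione, 9 of 22 integrated stress response, 9 of 24 p53 and 4 of 21 apoptosis genes higher. In these 4 lists 0 were lower. Without the number the counts higher were 0, 3, 1, 3 and 1 in the same order.

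NRF2 and glutathione genes had 8 of 23 higher and 3 lower, or 1 and 0 without the number, 4 higher without combined library 2 and 1 lower without siC library 2. Nqo1, a quinone reductase, rose to 54.8, 50 and 100.5 CPM in the combined libraries, against 29.8, 23.9 and 32.2 CPM in siC libraries (1.20, SE 0.15, adjusted p = 1.05e-05); Hmox1, heme oxygenase, fell to 78.7, 71.2 and 118 CPM, against 157, 119.5 and 278 CPM in siC libraries (-0.98, SE 0.14, adjusted p = 6.12e-05, and 0.191 without the number). Of the integrated stress response, 2 of 22 genes were higher and 5 lower, or 0 and 1 without the number, 2 lower without siC library 1 or combined library 1 and 3 without combined library 3. Mthfd2, a mitochondrial folate enzyme, had 8.51, 11.9 and 22.6 CPM in the combined libraries, against 36.3, 27.8 and 42.1 CPM in siC libraries (-1.39, SE 0.28, adjusted p = 0.00108, and 0.0643 without the number). Of 24 p53 targets 2 were higher and 2 lower, below the shares over all genes, with 0 called without the number, 1 lower without siC library 1 or 3 or combined library 2 or 3 and 1 higher without combined library 2. Of 21 genes of apoptosis, again below those shares, 1 was higher, Bcl2l11, which encodes the death-promoting BIM (0.85, SE 0.10, adjusted p = 8.05e-06), and 1 lower, Bmf (-1.46, SE 0.30, adjusted p = 0.00116, and 0.0541 without the number); without combined library 3 the counts were 3 and 2, without siC library 1 or 3, 2 were higher, and without siC library 2, 2 were lower. Immediate early genes had 8 of 23 higher and 2 lower, 5 higher without combined library 1, 0 lower without siC library 2 or combined library 2, 1 lower without siC library 3 or combined library 3, and 0 called without the number. Fos had 19, 17.2 and 359 CPM in the combined libraries, against 7.05, 4.48 and 132 CPM in siC libraries (1.59, SE 0.21, adjusted p = 2.31e-05, and 0.675 without the number). Library 3 is the highest in both groups, and the groups overlap.

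Among lysosome and autophagy genes 13 of 34 were higher and 8 lower, but 1 each without the number, and 7 or 8 higher without siC library 2 or 3 or combined library 2 or 3, and 2 to 4 lower without siC library 1 or 2 or any 1 combined library. Cathepsin O (Ctso) rose to 24.4, 38 and 30 CPM in the combined libraries, against 4.14, 5.2 and 2.12 CPM in siC libraries (3.06, SE 0.22, adjusted p = 1.98e-08), and Naglu, a heparan sulfate hydrolase, fell to 4.94, 10.9 and 5.92 CPM, against 21.8, 26.7 and 17.8 CPM in siC libraries (-1.67, SE 0.20, adjusted p = 6.66e-06). Clock genes had 7 of 17 higher and 2 lower, or 1 each without the number, 4 higher without combined library 1 and 1 lower without siC library 1 or 2 or combined library 2. Per2 rose by 1.49 (SE 0.21, adjusted p = 4.34e-05). Per2 had 17.3, 19.5 and 12.7 CPM in the combined libraries, against 7.86, 6.45 and 3.76 CPM in siC libraries, with no overlap.

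Liver-type genes changed one by one. Hnf4a, a master nuclear receptor of hepatocytes, fell to 41.2, 26.4 and 51.6 CPM in the combined libraries, against 84.6, 72.6 and 110.1 CPM in siC libraries (-1.19, SE 0.12, adjusted p = 1.27e-06), and was also below its level with siHCFC1 alone (-0.47, adjusted p = 0.0387) and siERRa alone (-0.52, adjusted p = 0.00565), neither of which was called without the library number (adjusted p = 0.827 and 0.368). Among the 22 tested genes of hepatocyte identity and plasma proteins, of 35 listed, 6 were higher and 2 lower, or 0 and 1 without the number, and 3 were higher without combined library 3. Afp had 1797, 3809 and 2051 CPM in the combined libraries, against 1143, 1755 and 1019 CPM in siC libraries (0.93, SE 0.11, adjusted p = 1.06e-05, and 0.101 without the number). Of 25 genes of bile acid, urea and xenobiotic enzymes 13 were tested, and 7 were higher and 0 lower, or 5 and 0 without the number: after Gulo and Akr1c14, Cyp7b1, of oxysterol breakdown, had 4.04, 12.3 and 9.81 CPM in the combined libraries, against 0.427, 1.91 and 0.6 CPM in siC libraries (3.30, SE 0.41, adjusted p = 1.1e-05). Of 13 coagulation and complement genes tested, 4 were called higher and 0 lower, or 2 and 0 without the number. In glycogen handling Ppp1r3c, a glycogen-targeting phosphatase subunit, rose to 149.8, 143 and 132 CPM in the combined libraries, against 77.1, 72.5 and 63.9 CPM in siC libraries (0.99, SE 0.11, adjusted p = 3.19e-06), while Gyg, the glycogenin gene, fell (-1.23, SE 0.19, adjusted p = 0.000117); 1 of 15 genes of this list was higher and 3 lower, or 1 and 2 without the number. Other nuclear receptors had 5 of 26 higher and 2 lower, or 2 and 1 without the number and 1 lower without siC library 1 or combined library 1 or 2.

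Matrix and adhesion had 8 of 31 genes called higher (25.8%) and 6 lower (19.4%), where 11.7% and 13.8% of all genes were, or 0 and 1 without the library number, with 4 higher without siC library 2, 5 without combined library 3 and 3 lower without siC library 3. Sparc, a collagen-binding matrix protein, rose to 1136, 1890 and 1195 CPM in the combined libraries, against 632, 757 and 444 CPM in siC libraries (1.20, SE 0.12, adjusted p = 1.13e-06, and 0.0502 without the number). The chemokine gene Ppbp rose to 178, 245 and 188 CPM in the combined libraries, against 47.9, 75.8 and 39.8 CPM in siC libraries (1.94, SE 0.15, adjusted p = 7.36e-08), while 2 of 18 chemokine and cytokine genes were called higher and 2 lower (11.1% each), near the shares over all genes, or 1 and 0 without the number, 0 lower without siC library 1 or combined library 2 and 1 lower without siC library 2 or combined library 3. Bile duct markers split. Keratin 7 (Krt7) rose by 1.13 (SE 0.15, adjusted p = 1.63e-05) and Spp1 by 0.98 (SE 0.12, adjusted p = 6.45e-06), while keratin 19 (Krt19) fell (-0.91, SE 0.32, adjusted p = 0.0443) and so did Epcam (-0.65, SE 0.21, adjusted p = 0.0278). Of these only Krt7 was called without the number, and 0 were called lower without siC library 2 or 3 or combined library 2 or 3. The 6 bile duct markers in the files summed to 2873 to 4229 TPM in the combined libraries and 1517 to 2527 TPM in siC libraries, most of it Spp1, and the 8 fibroblast markers to 2058 to 2489 TPM and 1378 to 2173 TPM in the same order, nearly all of it Dcn. The 3 endothelial markers in the files were under 1 TPM in all 6 libraries. The part of other cell types in these results was not tested.

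The combined knockdown was also set against each single one. Against siERRa alone, 1631 genes were called higher (10.2%) and 1560 lower (9.77%), or 225 and 293 without the library number. Against siHCFC1 alone, 220 genes were called higher (1.38%) and 342 lower (2.14%), or 0 and 1 without the number. That 1 gene is in none of the lists described here. The difference between the 2 counts was not tested. Against siHCFC1 the 562 calls came to 243 without combined library 2, and leaving out siHCFC1 library 2 or 3 gave 252 or 317. In 69 genes (0.432%) the combined libraries differed from siC and from both single knockdowns in 1 direction, 23 of them higher and 46 lower, and in 0 genes without the library number. The genes named below as changed further are called so only with it. The 3 comparisons share the combined libraries, so the count is a description. Leaving out 1 library gave 27 to 87 such genes, with 27 for combined library 2 and 38 or 42 for siHCFC1 library 2 or 3, and leaving out library number 2 from all groups gave 9.

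Examples are the 6 largest changes against siC in each direction that pass the rule for ranges and TPM above. Among the 23 rises, Gulo had 43.3, 81.9 and 24.1 CPM in the combined libraries, 20, 28.1 and 7.03 CPM with siERRa, 17.7, 32.4 and 8.95 CPM with siHCFC1 and 2.44, 4.86 and 2.04 CPM in siC libraries. It was higher than with siERRa by 1.46 (SE 0.18, adjusted p = 2.05e-05) and than with siHCFC1 by 1.35 (SE 0.18, adjusted p = 0.000257). Within each number the combined library is the highest of the 4 and siC the lowest. Col14a1, a fibril-associated collagen, had 229.6, 352 and 133 CPM in the combined libraries, 125, 119.9 and 56.4 CPM with siERRa, 142, 186 and 64.7 CPM with siHCFC1 and 35.5, 39.1 and 20.2 CPM in siC libraries (1.22 against siERRa, adjusted p = 4.01e-06; 0.89 against siHCFC1, adjusted p = 0.00054). The next were Vnn1, a pantetheinase (2.61 against siC, SE 0.21), Nrep (2.40, SE 0.28), the sodium pump subunit gene Atp1b1 (2.21, SE 0.11) and Gpcpd1, of choline phospholipid breakdown (2.04, SE 0.14). Atp1b1 had 183, 318 and 179 CPM in the combined libraries, 122, 177 and 111 CPM with siERRa, 129.6, 192 and 114 CPM with siHCFC1 and 44.3, 63.2 and 37.8 CPM in siC libraries. For Atp1b1, too, the combined library is the highest and siC the lowest within each number.

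Of the 46 falls, R3hdml had 0.505, 0.146 and 0.299 CPM in the combined libraries, 1.04, 1.24 and 2.78 CPM with siERRa, 1.82, 1.77 and 3.26 CPM with siHCFC1 and 4.57, 5.07 and 5.88 CPM in siC libraries. Prkcz fell to 1.9, 1.02 and 0.665 CPM in the combined libraries, with 7.64, 4.36 and 4.96 CPM for siERRa, 5.04, 2.61 and 2.47 CPM for siHCFC1 and 10.3, 8.5 and 12 CPM in siC libraries (-2.28 against siERRa, adjusted p = 0.000181; -1.51 against siHCFC1, adjusted p = 0.0224). Atp13a2, a lysosomal polyamine exporter (-2.68 against siC, SE 0.19), Rab11fip4, an effector of recycling endosomes (-2.51, SE 0.28), the nucleoside transporter gene Slc29a2 (-2.46, SE 0.31) and Adam3 (-2.15, SE 0.32) followed. Ttc32 (-3.66, SE 1.00) and Mtm1 (-2.26, SE 0.36) fell by more than Adam3 but averaged under 5 TPM in siC libraries. The 46 also hold 5 of the 25 cholesterol genes, Acat2, Cyp51, Dhcr7, Lss and Nsdhl, and the fatty acid desaturase genes Fads2 and Scd1. Dhcr7 was below siERRa (-0.67, SE 0.12, adjusted p = 0.000558) and below siHCFC1 (-0.93, SE 0.12, adjusted p = 0.000201), with 72.4, 134 and 63.3 CPM for siERRa alone and 79.4, 148 and 89 CPM for siHCFC1 alone.

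**Figure D5:**
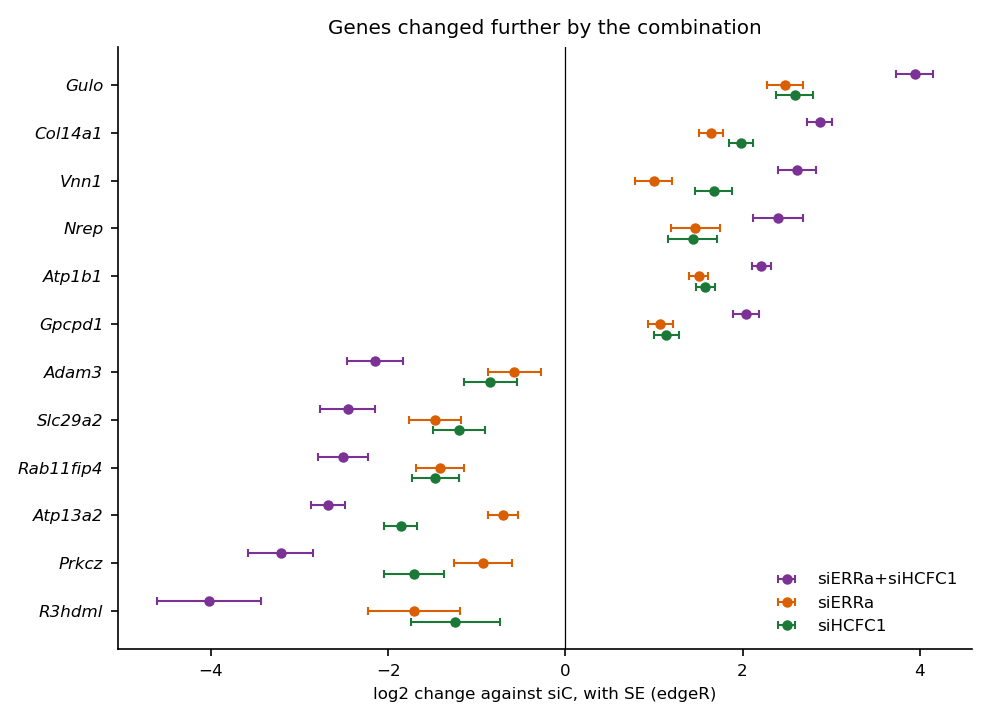
Log2 change against siC with its SE (edgeR) for the combined knockdown, siERRa alone and siHCFC1 alone, in the 6 largest rises and 6 largest falls with ranges apart and a mean of at least 5 TPM in the higher group among the 69 genes changed further by the combination. The combined point lies farthest from 0 for each gene, which the choice of these genes fixes.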

How the data were processed

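RNA-seq was done on 12 libraries, 4 groups of 3. Per the labels' protocols, libraries were made with a kit that does not mark strand. Per the submitters' processing notes, HISAT2 2.0.5, featureCounts 1.5.0-p3, DESeq2 1.20.0 and build mm10 were used. The deposited counts are raw reads per gene in 5 tables, in which the 254217 values given in more than 1 table differed in 0 cases; 5451 blank cells, for genes a table does not list, were set to 0. The authors also deposited TPM values, numbered 1, 2 and 4 where the counts have 1, 2 and 3, so TPM is given by group only. The authors' deposited table holds log2 fold changes and p-values, per the file headers. Another 60 columns of normalised values were not used.

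Genes passing edgeR's low-count filter (15965 of 24326) were fitted with edgeR 4.0.16 (R 4.3.3) over the 12 libraries, with TMM scaling and group plus library number (6 residual degrees of freedom). An adjusted p under 0.05 was called, and SE is the change over the root of F. limma 3.58.1, DESeq2 1.42.0 and other filters, scalings and subsets were alternatives. No 2 libraries of a group agreed within sampling noise (chi-square per degree of freedom at least 44.1). Totals of 21.4 to 33.2 M counts limit counting error only. On simulated data for the comparison of siERRa+siHCFC1 with siC over 14889 genes, 27.7% of 65 1.5-fold, 48.4% of 64 2-fold and 65.6% of 61 4-fold changes were recovered, with 3 false calls. These counts were drawn from the fitted model, library number included, so they cannot test whether that term is right. Far fewer genes were changed than the 4067 called in the data, so recovery there may differ.

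Members and lists were chosen with earlier results of these data known. Named genes are both targets, the 10 largest rises and falls (called, ranges apart, same direction in every number, mean TPM of at least 5), up to 3 called members of each list with the smallest adjusted p, and, by the filters of the first 10, 6 genes per direction changed further by the combination, 152 in all, of which the text prints some. Gapdh, Mmachc, Esrrg, Insig1, Srebf2, Cyp51, Nsdhl, Ttc32, Mtm1 and the cell type markers were named after their values were seen. A gene is marked uncertain where over 20% of its 31-base words, or of its exons, lie in another gene. Promoters are from RefSeq (GRCm38.p6). The results of some genes are not reported here.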

Additional observations from a re-analysis of the deposited data

How the results depend on the processing

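Same-numbered libraries deviated together with correlations of 0.028 to 0.33 over 18 pairs (0.028, 0.28 and 0.20 between siERRa+siHCFC1 and siC in numbers 1, 2 and 3), against at most 0.055 for different numbers, and all 12 libraries correlated best with their own number. This is a hint from the data and not from the labels, since all 6 pairs of number 1 lie under 0.1, so both fits are given. Between siERRa+siHCFC1 and siC alone, number 1 did not correlate best with itself. There siERRa+siHCFC1 library 1 correlated at 0.048 with siC library 3, and siC library 1 at 0.033 with siERRa+siHCFC1 library 3. Without the replicate block, 1100 genes were called against siC (452 higher, 648 lower), 1 against siHCFC1 (0 higher, 1 lower), 518 against siERRa (225 and 293) and 0 further (0 and 0), and Hcfc1 was at -0.61. With limma on log2(TPM + 0.5), also without the block, they were 945 (250 and 695), 1 (0 and 1), 356 (109 and 247) and 0 (0 and 0), and Hcfc1 was at -0.75. With no filter on low counts, 897 genes were called against siHCFC1 (371 and 526) and 114 further (43 and 71). DESeq2 with the block gave 934 (373 and 561) and 108, 47 of them higher. Libraries of the 2 groups alone gave 2080 against siERRa, 1039 higher.

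Leaving out a library, or a library number from all groups, gave 2537 to 3606 calls against siC (1163 to 1629 higher, 1374 to 1977 lower), 94 to 474 against siHCFC1 (37 to 170 and 57 to 304), 1904 to 2743 against siERRa (920 to 1419 and 984 to 1464) and 9 to 87 further (5 to 29 and 4 to 58). Esrra ran from -1.68 to -1.17 and stayed called, and Hcfc1 from -0.89 to -0.31, uncalled without siC library 3 or number 3. Of 152 named genes, 0 reversed, 90 were called without the block, 79 with limma on log2(TPM + 0.5) and 136 whichever library was left out. Hcfc2, Ndufv2, Ndufa10, Prim1, Cdc25b, Nqo1, Per2, Gyg, Bcl2l11 and Krt7 were called without the block and not by limma. The setting that left out the mitochondrial chromosome was chosen after seeing the data. The causes of these shifts were not tested.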
